A study of Nicotiana tabacum with 6 samples.

Results

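The gibberellin receptors and DELLA repressors of tobacco (Nicotiana tabacum) were taken as all genes whose deposited symbol begins with the name GID1, GID1A to GID1C, RGA, GAI, GAI1 or RGL1 to RGL3. This gave 34 of the 69500 genes in the table, 15 receptor copies and 19 DELLA copies. All 15 receptor copies carry the symbol GID1A, and the DELLA copies carry RGA (9), GAI1 (4), GAI (3) and RGL3 (3). The symbols come from the authors' table, which pairs most of them with the names of Arabidopsis genes, and the protein sequences of the copies were not used here. Membership therefore rests on the symbols alone. Whether every GID1A copy is a receptor rather than a related carboxylesterase, and every low-count RGA or GAI copy a DELLA gene, was not checked, and the family sums include all of them.

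Seedlings grown in nutrient solution with 7.5 mM ammonium nitrate (control) were compared with seedlings grown in the same solution with 0.75 mM (low nitrogen). The treatment lasted 15 days, with fresh solution every 7 days, and each group had 3 libraries of polyadenylated RNA. The labels state no cultivar, age at the start, organ or pooling of plants. Whether the libraries came from separate plants is not stated either, and p-values therefore cover only the spread between these libraries, which may be technical.

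Gibberellins are diterpenoid hormones that promote stem elongation, germination and growth. The hormone binds the soluble receptor GID1 in the nucleus, and the loaded receptor then grips DELLA proteins, which are growth repressors of the GRAS family. An F-box protein (GID2 in rice, SLY1 in Arabidopsis) recruits the bound DELLA protein to a ubiquitin ligase for destruction. In Arabidopsis, DELLA proteins raise transcripts of GID1 and of late gibberellin biosynthesis enzymes, a feedback loop, and nitrate supply has been linked to gibberellin metabolism and DELLA breakdown. DELLA activity is set largely by protein stability, which mRNA counts do not measure.

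Libraries held 13027374 to 15620067 counts. Control replicate 3 stood apart from the other controls. Its log2 levels correlated at r = 0.937 and 0.931 with control replicates 1 and 2 across genes, which are not independent replicates, against 0.971 between those libraries. With low nitrogen replicates 1 to 3, control replicate 3 correlated at 0.9430, 0.9496 and 0.9483. By this measure it lay nearer to each low nitrogen library than to either other control. Results without it are among those given below. The summed level of 262 genes with symbols of light-harvesting, photosystem and Rubisco small subunit genes was 125 and 73.7 CPM in control replicates 1 and 2 but 1857 CPM in control replicate 3 (CPM being counts scaled to a common library total, with TMM factors for these marker sums). Low nitrogen replicate 1 was at 1052 CPM, replicate 2 at 462 CPM and replicate 3 at 176 CPM. The summed level of 10 root marker genes was 738 to 1201 CPM in controls and 904 to 1039 CPM in low nitrogen. Most of that sum came from QPT, an enzyme of NAD and nicotine synthesis. The summed level of 14 genes of the pollen extensin PEX3 was 79.3 to 112 CPM in controls and 78.7 to 85.9 CPM in low nitrogen. The planned floral names matched no floral gene: SEP1 and SEP2 carry the loci of stress-enhanced proteins, relatives of the light-harvesting proteins. Their 3 genes together were at 11.9, 12.0047 and 13.9 CPM in controls and at 15.9, 20.7 and 20.2 CPM in low nitrogen, without overlap, and their part in the results below was not tested. A library's mix of organs was not recorded, and in bulk samples fewer cells of a type and less RNA per cell cannot be told apart.

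As a family, the receptor transcripts did not differ between groups beyond their spread. The 15 GID1A copies together were at 550.4, 538 and 416 CPM in controls and at 514, 466 and 558 CPM in low nitrogen (CPM after TMM scaling and replicates in the order 1 to 3, here and below). The means were 501 ± 74.4 and 513 ± 46.2 CPM (SD, n = 3), and the low nitrogen values lay between or just above the control values, with control replicate 3 the lowest library. With counts summed over the symbol GID1A, the log2 fold change of low nitrogen over control was 0.02 (SE 0.15, edgeR adjusted p 0.969). Single copies departed from this even sum in both directions. Of the 15 copies, all tested, 8 had log2 fold changes above 0 and 7 below, with a median of 0.0054 against 0.0029 over the 38482 genes tested.

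**Figure D1:**
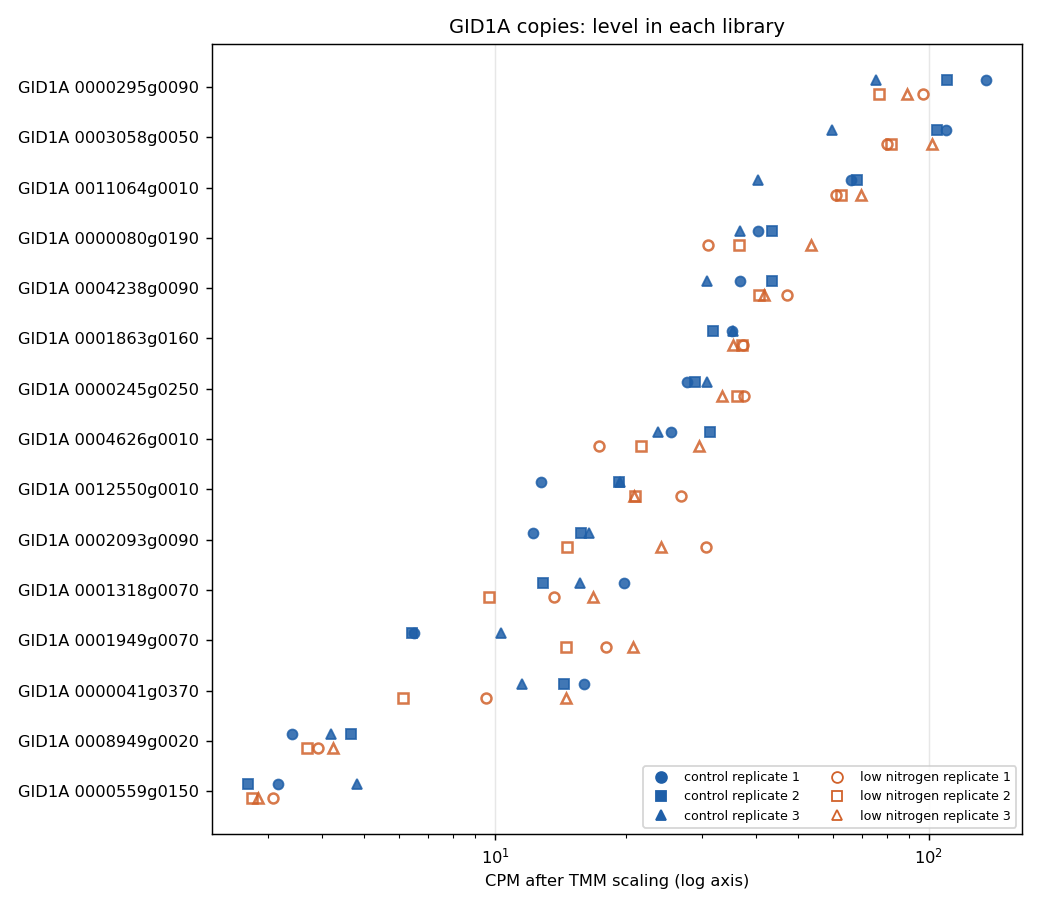
Level of each of the 15 GID1A copies (rows, named by the end of their identifier) in CPM after TMM scaling on a log axis. Filled blue marks are the 3 control libraries and open orange marks the 3 low nitrogen libraries. For Nitab4.5_0001949g0070 the low nitrogen marks (14.6 to 20.8 CPM) lie right of all control marks (6.45 to 10.3 CPM).

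The receptor copy that differed most was GID1A Nitab4.5_0001949g0070. It was at 6.50, 6.45 and 10.3 CPM in controls and at 18.1, 14.6 and 20.8 CPM in low nitrogen. Every low nitrogen library was above every control library, and control replicate 3 was the control nearest to them. The fold was 2.29 (95% interval 1.54 to 3.39), or 1.19 on the log2 scale (SE 0.24). Its edgeR adjusted p, corrected over every gene tested, was 0.332 (unadjusted 0.001502), which misses the threshold of 0.05. DESeq2 on the same counts gave an adjusted p of 0.00670. That call ended without control replicate 1 (adjusted p 0.164), control replicate 2 (0.0983) or low nitrogen replicate 1 (0.129), and held without each of the others, with 0.000129 without control replicate 3. The copy took 1.18%, 1.20% and 2.49% of all GID1A counts in control replicates 1 to 3 and 3.51%, 3.12% and 3.73% in low nitrogen replicates 1 to 3.

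Further GID1A copies had groups that did not overlap, by smaller margins. Nitab4.5_0000245g0250 was at 27.8, 29.0 and 30.8 CPM in controls and at 37.6, 36.1 and 33.4 CPM in low nitrogen. This is a narrow shift between tight groups, with a fold of 1.22 (95% interval 1.01 to 1.48, edgeR adjusted p 0.415, unadjusted 0.0412). Nitab4.5_0012550g0010 was at 12.7, 19.3 and 19.4 CPM in controls and at 26.9, 21.0 and 20.9 CPM in low nitrogen, with a fold of 1.33 (95% interval 0.959 to 1.86). Control replicate 1 was its low library and low nitrogen replicate 1 its high one. Nitab4.5_0001863g0160 was at 31.7 to 35.4 CPM in controls and at 35.4 to 37.2 CPM in low nitrogen, so that its groups only just parted, and its fold was 1.07 (95% interval 0.892 to 1.29).

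Nitab4.5_0002093g0090 had overlapping groups. It was at 12.3, 15.8 and 16.4 CPM in controls and at 30.7, 14.7 and 24.1 CPM in low nitrogen, where replicate 2 sat among the controls and replicate 1 was the highest. Its fold was 1.56 (95% interval 1.00 to 2.44, edgeR adjusted p 0.424, unadjusted 0.0492). Without low nitrogen replicate 1 its log2 fold change was 0.38, against 0.64 with it.

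In the GID1A copies with the most counts, control replicate 3 was the lowest library. Nitab4.5_0000295g0090, Nitab4.5_0003058g0050 and Nitab4.5_0011064g0010 together held 48.7% of the 42673 GID1A counts (raw counts, not corrected for gene length, which the table does not give). Nitab4.5_0000295g0090 was at 135, 110.1 and 75.7 CPM in controls and at 96.8, 76.8 and 89.3 CPM in low nitrogen. Nitab4.5_0003058g0050 was at 109.8, 104 and 59.7 CPM in controls and at 80.2, 81.7 and 102 CPM in low nitrogen. Nitab4.5_0011064g0010 was at 66.1, 68.1 and 40.4 CPM in controls and at 61.2, 62.9 and 69.6 CPM in low nitrogen. Control replicate 3 was the lowest of the 6 libraries in each of these 3 copies, and the groups overlapped. Their folds were 0.819 (95% interval 0.568 to 1.18), 0.962 (0.646 to 1.43) and 1.11 (0.788 to 1.56). Control replicate 3 was also the library with the highest green tissue marker sum, and the part of that in these values was not tested.

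The other 7 GID1A copies had overlapping groups and folds from 0.720 to 1.16. The lowest fold was that of Nitab4.5_0000041g0370, at 15.998, 14.4 and 11.5 CPM in controls and at 9.51, 6.12 and 14.6 CPM in low nitrogen. Low nitrogen replicate 3 lay within the control range, and the 95% interval of the fold was 0.433 to 1.20. Nitab4.5_0000080g0190 had the same mean in both groups, 40.2 ± 3.35 and 40.3 ± 11.7 CPM (SD, n = 3), with low nitrogen replicate 1 the lowest library and replicate 3 the highest. The spread between low nitrogen libraries alone was 1.72-fold in this copy.

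The DELLA copies as a group did not differ between conditions beyond their spread either. Their summed level was 116, 129 and 130.1 CPM in controls and 136, 147 and 119 CPM in low nitrogen, or 125 ± 7.53 and 134 ± 13.7 CPM (SD, n = 3). The ranges overlapped through low nitrogen replicate 3. Of the 19 copies, 12 had enough counts to be tested, of which 7 had log2 fold changes above 0 and 5 below (median 0.089). The 7 copies not tested had 0 to 65 counts over all libraries. They were 4 RGA, 2 GAI and 1 RGL3 genes. The RGL3 gene Nitab4.5_0007087g0020 and the RGA gene Nitab4.5_0010637g0010 had 0 counts in every library, which allows up to 0.192 to 0.230 CPM per library (3 counts, counting error only, without TMM scaling).

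**Figure D2:**
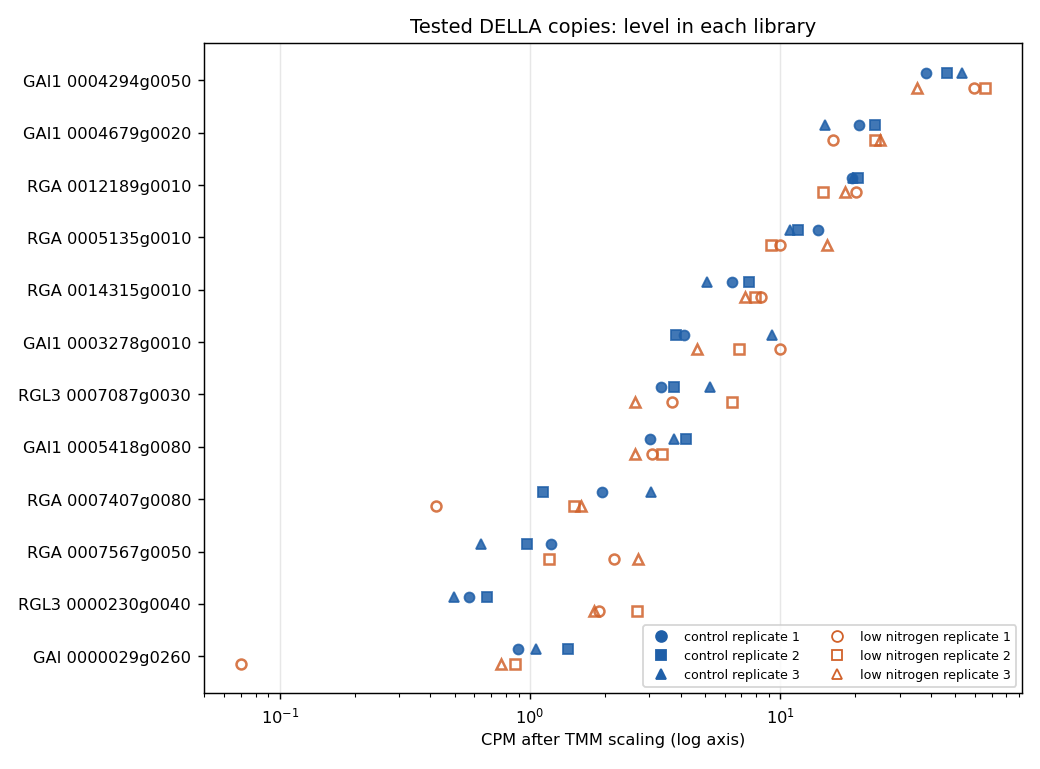
Level of the 12 tested DELLA copies (rows) in CPM after TMM scaling on a log axis, with filled blue marks for control and open orange marks for low nitrogen libraries. RGL3 Nitab4.5_0000230g0040 shows controls at 0.496 to 0.675 CPM and low nitrogen at 1.80 to 2.69 CPM, while most other copies have mixed groups.

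RGL3, in Arabidopsis the DELLA gene known to respond to jasmonate, gave the largest fold of any tested copy. RGL3 Nitab4.5_0000230g0040 held 7, 9 and 7 counts in control replicates 1 to 3 and 27, 43 and 26 in low nitrogen replicates 1 to 3. That is 0.568, 0.675 and 0.496 CPM against 1.89, 2.69 and 1.80 CPM, with each low nitrogen library above each control and close agreement among the controls, replicate 3 included. The fold was 3.64 (95% interval 2.03 to 6.51), a log2 fold change of 1.86 (SE 0.36). The edgeR adjusted p was 0.316 (unadjusted 0.00111) and the DESeq2 adjusted p 0.0440. Over the alternatives the log2 fold change stayed between 1.66 and 1.99, with edgeR adjusted p from 0.161 without control replicate 3 to 0.853 without control replicate 1. The DESeq2 call ended without each of control replicates 1 to 3 (0.318, 0.143 and 0.0962) and without low nitrogen replicates 1 and 2 (0.275 and 0.337), and DESeq2 gave it no adjusted p without low nitrogen replicate 3. With 119 counts in all, it carried 1.08% of DELLA counts.

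The other tested RGL3 gene, Nitab4.5_0007087g0030, had more counts and no such separation. It was at 3.33, 3.75 and 5.24 CPM in controls and at 3.71, 6.43 and 2.64 CPM in low nitrogen. The low nitrogen libraries held both the lowest and the highest value, and the fold was 1.04 (95% interval 0.568 to 1.90). Summed over the symbol, RGL3 had a log2 fold change of 0.43 (SE 0.31, edgeR adjusted p 0.561).

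RGA encodes in Arabidopsis a DELLA repressor of stem growth. The RGA copies with the most counts had overlapping groups. Nitab4.5_0012189g0010 was at 19.4, 20.4 and 19.5 CPM in controls and at 20.1, 14.9 and 18.1 CPM in low nitrogen, a fold of 0.895 (95% interval 0.702 to 1.14). The controls differed by 1.05-fold at most, and low nitrogen replicate 2 was the low library. Nitab4.5_0005135g0010 was at 14.1, 11.8 and 10.9 CPM in controls and at 10.005, 9.18 and 15.4 CPM in low nitrogen, where replicate 3 was the highest of all libraries. Nitab4.5_0014315g0010 was at 6.42, 7.50 and 5.10 CPM in controls and at 8.40, 7.93 and 7.21 CPM in low nitrogen, with a fold of 1.24 (95% interval 0.892 to 1.72) and groups that overlapped at a single library.

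The RGA copies with few counts spread more widely. Nitab4.5_0007567g0050 was at 1.22, 0.975 and 0.637 CPM in controls and at 2.17, 1.19 and 2.71 CPM in low nitrogen. Low nitrogen replicate 2 fell just under the highest control, so the groups overlapped, and the fold was 2.13 (95% interval 1.05 to 4.36, edgeR adjusted p 0.415, unadjusted 0.0401). Nitab4.5_0007407g0080 was at 1.95, 1.13 and 3.04 CPM in controls and at 0.420, 1.499 and 1.595 CPM in low nitrogen, with a fold of 0.577 (95% interval 0.227 to 1.46). Summed over the symbol, RGA had a log2 fold change of -0.09 (SE 0.13, edgeR adjusted p 0.774).

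GAI, the other main Arabidopsis repressor of stem growth, had a single tested copy. Nitab4.5_0000029g0260 was at 0.893, 1.43 and 1.06 CPM in controls and at 0.0700, 0.874 and 0.763 CPM in low nitrogen, the last being 1, 14 and 11 counts. It was the single DELLA copy with every low nitrogen library below every control, but low nitrogen replicate 2 missed the lowest control by little. The fold was 0.512 (95% interval 0.167 to 1.57, edgeR adjusted p 0.590), so that neither a fall nor a rise is shown.

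GAI1 copies held most of the DELLA counts and differed from each other in their order of libraries. Nitab4.5_0004294g0050 alone held 38.7% of the 10999 DELLA counts. It was at 38.2, 46.4 and 53.5 CPM in controls and at 59.3, 66.0 and 35.3 CPM in low nitrogen. Low nitrogen replicates 1 and 2 were the highest libraries and replicate 3 the lowest of all, and the fold was 1.16 (95% interval 0.775 to 1.74). Nitab4.5_0004679g0020 was at 20.7, 24.0 and 15.2 CPM in controls and at 16.2, 23.9 and 25.0 CPM in low nitrogen, with the low libraries being control replicate 3 and low nitrogen replicate 1. Those are the libraries with the highest green tissue marker sums.

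GAI1 Nitab4.5_0003278g0010 ran the other way. It was at 4.14, 3.83 and 9.27 CPM in controls and at 10.005, 6.87 and 4.65 CPM in low nitrogen, so that control replicate 3 and low nitrogen replicate 1 were its highest libraries. Its level differed 2.42-fold between control replicates 2 and 3, against a fold between groups of 1.24 (95% interval 0.627 to 2.47). The part of green tissue in either pattern was not tested. Nitab4.5_0005418g0080 was at 3.005, 4.20 and 3.75 CPM in controls and at 3.08, 3.37 and 2.64 CPM in low nitrogen, a fold of 0.829 (95% interval 0.553 to 1.25). Summed over the symbol, GAI1 had a log2 fold change of 0.16 (SE 0.17, edgeR adjusted p 0.681).

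**Figure D3:**
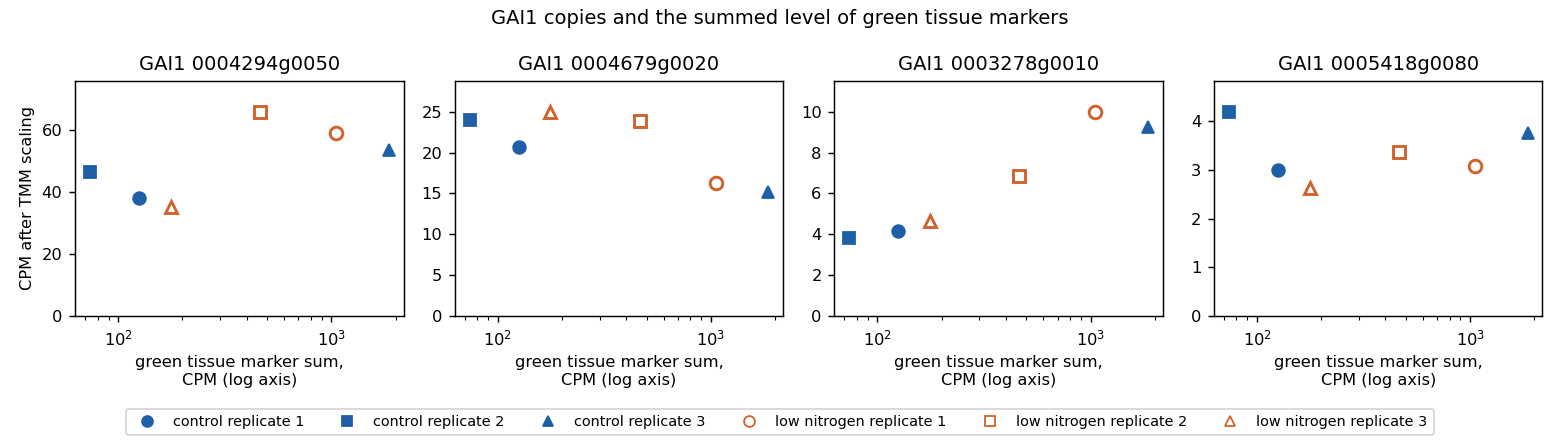
Level of each of the 4 GAI1 copies (CPM after TMM scaling, linear axis from 0) against the summed level of 262 green tissue marker genes in the same library (CPM, log axis). Nitab4.5_0003278g0010 is highest at 9.27 and 10.005 CPM in the libraries with marker sums of 1857 and 1052 CPM, and Nitab4.5_0004679g0020 is at 15.2 and 16.2 CPM in those libraries, its lowest values.

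Counted over all copies, 0 of the 27 tested passed the edgeR threshold, as did 0 of the 38482 genes tested (0%). At an unadjusted p under 0.05, 5 of the 27 were higher in low nitrogen, against 6.1% of all genes, and 0 were lower, against 5.66%. The 5 were GID1A Nitab4.5_0001949g0070, Nitab4.5_0000245g0250 and Nitab4.5_0002093g0090, RGL3 Nitab4.5_0000230g0040 and RGA Nitab4.5_0007567g0050. Which copies were at that level depended on the libraries, and so did the number of all genes at it. That number was 4527 with every library. It was 2210, 4042 and 5949 without control replicates 1, 2 and 3. Without low nitrogen replicates 1, 2 and 3 it was 2539, 3659 and 5653. RGL3 Nitab4.5_0000230g0040 and GID1A Nitab4.5_0001949g0070 were higher at that level whichever library was left out. Without control replicate 3, GID1A Nitab4.5_0000295g0090 was lower at that level (log2 fold change -0.495, unadjusted p 0.0331). Without low nitrogen replicate 3, GID1A Nitab4.5_0000041g0370 was lower (-0.838, unadjusted p 0.0186) and GAI1 Nitab4.5_0004294g0050 higher. Without control replicate 2, RGA Nitab4.5_0000363g0250, a copy that the filter left out of the main run, was lower. It held 18, 6 and 22 counts in control replicates 1 to 3 and 3, 10 and 6 in low nitrogen replicates 1 to 3. On all libraries DESeq2 gave it a log2 fold change of -1.47 (unadjusted p 0.0637). DESeq2 placed 2 copies past its threshold, both higher, GID1A Nitab4.5_0001949g0070 and RGL3 Nitab4.5_0000230g0040, against 0.692% of the genes to which it gave an adjusted p. limma-voom placed 0 (3 at an unadjusted p under 0.05, against 4472 of the 38482 genes tested). The groups did not overlap in 5 copies that were higher (9.66% of all genes) and 1 that was lower (8.54%). Copies above a log2 fold change of 0 were 15 of 27, or 55.6%, against 50.3% of all genes, and the copies share reads or ancestry to an unknown degree, so they are not independent.

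**Figure D4:**
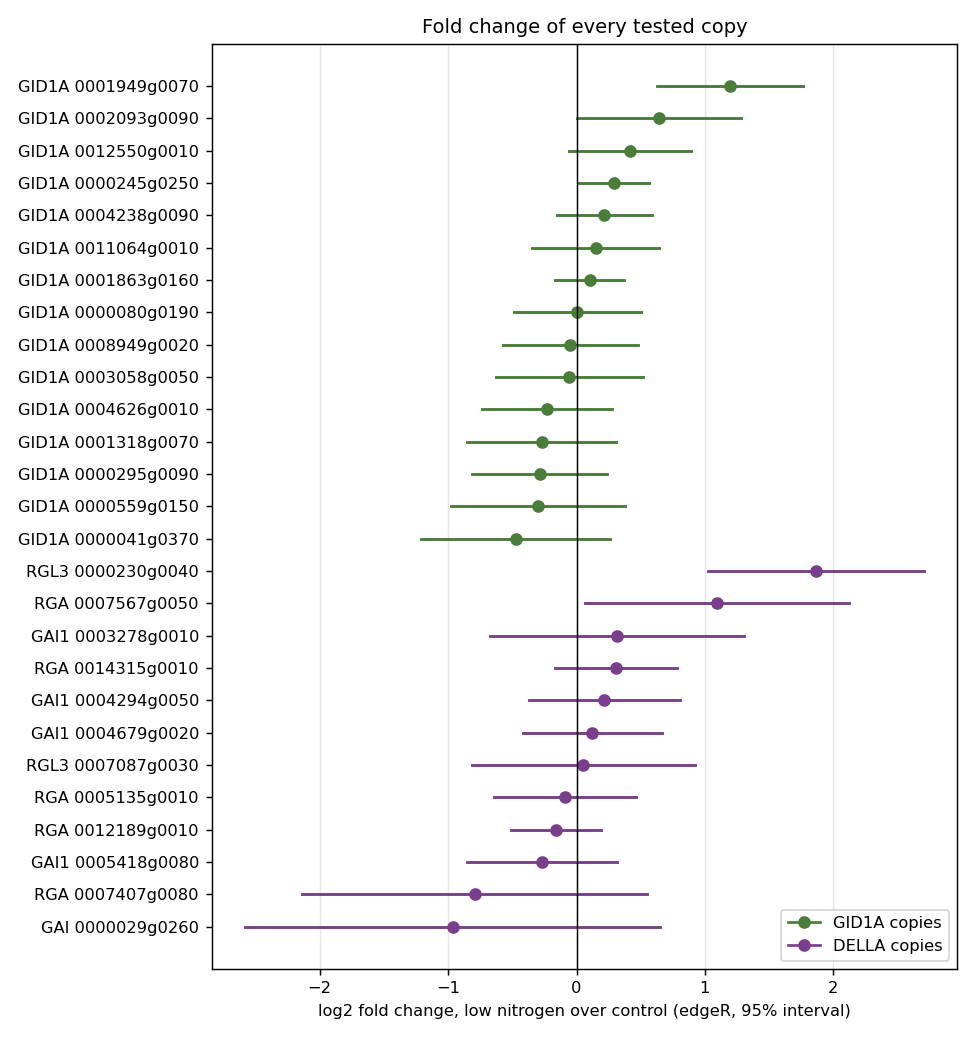
Log2 fold change of low nitrogen over control with its 95% interval (edgeR) for the 27 tested copies, GID1A in green and DELLA in purple. RGL3 Nitab4.5_0000230g0040 (1.86) and GID1A Nitab4.5_0001949g0070 (1.19) have intervals farthest from 0, and most others cross it.

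Around the receptor, the F-box proteins and the enzymes that modify DELLA proteins had 10 of 13 genes tested. Log2 fold changes were above 0 in 8 (80%, against 50.3% of all genes) and below in 2, with a median of 0.14. In 3 of the 10 the groups did not overlap, all higher (against 9.66% of all genes). At an unadjusted edgeR p under 0.05, 2 were higher (20%, against 6.1%). Copies of a name may not be independent. The gene with the smallest p was GID2 Nitab4.5_0005426g0010, the F-box protein that hands DELLA proteins to the ubiquitin ligase. It was at 23.8, 26.6 and 34.4 CPM in controls and at 50.5, 44.7 and 35.9 CPM in low nitrogen. Control replicate 3 and low nitrogen replicate 3 nearly met, without overlap, and the fold was 1.54 (95% interval 1.13 to 2.11, edgeR adjusted p 0.367). The other tested GID2 genes had overlapping groups. Their folds were 1.26 (Nitab4.5_0001984g0070, 95% interval 0.947 to 1.69) and 0.645 (Nitab4.5_0001166g0010, 0.284 to 1.46). GID2 Nitab4.5_0002987g0020, with 31 counts in all, was not tested. SEC Nitab4.5_0000868g0040, in Arabidopsis an O-GlcNAc transferase that modifies RGA, was at 36.5, 40.0 and 36.2 CPM in controls and at 48.8, 50.3 and 43.6 CPM in low nitrogen (fold 1.27, 95% interval 1.04 to 1.54, adjusted p 0.390). SEC Nitab4.5_0000309g0320, the gene of the list with the highest CPM, was at 206 ± 23.9 and 224 ± 17.4 CPM (SD, n = 3). Folds of the other tested SEC genes were 0.975 (Nitab4.5_0002260g0250, 95% interval 0.787 to 1.21) and 1.00 (Nitab4.5_0003358g0040, 0.821 to 1.22), both with overlapping groups. Nitab4.5_0001439g0170 had a fold of 1.12 (0.919 to 1.35), without overlap.

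With edgeR, no list of gibberellin synthesis or inactivation genes had a member past the threshold or at an unadjusted p under 0.05. DESeq2 gave the KO and KS1 genes named below unadjusted p of 0.0230 and 0.0360 (adjusted 0.320 and 0.382). The signs below are counts only, to be read against 50.3% above 0 over all genes, and the difference between lists was not tested. Of 32 genes with names of early enzymes, which make ent-kaurene and oxidise it, 12 were tested, with 1 above and 11 below 0 and a median log2 fold change of -0.48. In all 12 the groups overlapped. KO Nitab4.5_0000068g0130, ent-kaurene oxidase, was at 14.1, 39.8 and 15.9 CPM in controls and at 11.9, 15.2 and 8.95 CPM in low nitrogen, with control replicate 2 far above the rest (fold 0.516, 95% interval 0.261 to 1.02). KS1 Nitab4.5_0004164g0010, a kaurene synthase, was at 37.9, 56.3 and 16.1 CPM in controls and at 14.9, 26.3 and 18.5 CPM in low nitrogen, with control replicate 3 among the low nitrogen values.

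Of 24 genes with names of late oxidases, which make the active hormone, 8 were tested, with 7 above and 1 below 0 and a median of 0.25. GA3OX2 Nitab4.5_0003848g0020, the one with the highest CPM, was at 20.5, 26.4 and 12.5 CPM in controls and at 25.6, 42.1 and 19.6 CPM in low nitrogen (fold 1.47, 95% interval 0.832 to 2.60). GA3OX2 Nitab4.5_0011714g0010, with the smallest p, was at 0.225 to 1.27 CPM in controls and 0.902 to 4.69 CPM in low nitrogen. Of 22 genes for GA2-oxidases, which inactivate the hormone, 6 were tested, 1 above and 5 below 0 (median -0.26). GA2OX2 Nitab4.5_0001013g0080 was at 7.31, 5.25 and 3.26 CPM in controls and at 3.57, 3.19 and 2.91 CPM in low nitrogen, overlapping through control replicate 3. For transport, 3 of 14 genes were tested, 1 above and 2 below 0. NPF3.1 Nitab4.5_0004564g0020, in Arabidopsis a gibberellin carrier, was at 4.23 ± 1.31 and 3.79 ± 0.384 CPM, and NPF3.1 Nitab4.5_0002859g0160, with the smallest p, was at 2.97 ± 1.17 and 2.48 ± 0.594 CPM (SD, n = 3).

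Relatives of the DELLA proteins in the GRAS family had 60 of 75 genes tested, 27 above and 33 below 0, with a median of -0.03. At an unadjusted p under 0.05, 1 was higher (1.67%, against 6.1% of all genes) and 4 lower (6.67%, against 5.66%), so the lower share was near that of all genes. SCL21 Nitab4.5_0001735g0150, whose Arabidopsis namesake acts in phytochrome A signalling, was at 28.3, 24.8 and 19.9 CPM in controls and at 18.1, 15.5 and 15.4 CPM in low nitrogen, without overlap (fold 0.672, 95% interval 0.512 to 0.881, edgeR adjusted p 0.363). Another SCL21 gene, Nitab4.5_0007845g0010, lay the other way, at 29.7 ± 4.84 and 41.1 ± 6.67 CPM (SD, n = 3). SCL14, which in Arabidopsis acts in the response to xenobiotics, had a pair of genes at an unadjusted p under 0.05, with folds of 0.488 (Nitab4.5_0000368g0350) and 0.542 (Nitab4.5_0002715g0060) and overlapping groups in both. The third SCL21 gene at this level, Nitab4.5_0000092g0120, was at 32.8 CPM in control replicate 1 and 8.50 CPM in control replicate 3, which reached into the low nitrogen range of 6.45 to 10.2 CPM. SCL1 Nitab4.5_0000174g0290, the gene of the list with the highest CPM, was at 53.6 ± 7.22 and 62.1 ± 9.55 CPM (SD, n = 3).

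A list picked by name, for factors that bind DELLA proteins in Arabidopsis, had 19 of 29 genes tested, 7 above and 12 below 0 (median -0.07). It took PIF, PIL and IDD names by pattern, and TIFY10A, and binding was not checked for each gene. IDD2 Nitab4.5_0005475g0020, whose namesake forms an activating complex with DELLA proteins, was at 12.1, 11.8 and 8.35 CPM in controls and at 5.32, 5.68 and 8.39 CPM in low nitrogen. It was the one gene of the list at an unadjusted p under 0.05 (fold 0.602, 95% interval 0.402 to 0.901, adjusted p 0.386), with control replicate 3 and low nitrogen replicate 3 level with each other. IDD2 Nitab4.5_0008025g0010, with the highest CPM, was at 57.2 ± 14.6 and 58.9 ± 12.03 CPM. Peptides of the gibberellin-regulated (GASA and snakin) family had 15 of 28 genes tested, 6 above and 9 below 0 (median -0.20). SN2 Nitab4.5_0000980g0290 was at 45.1, 57.3 and 64.3 CPM in controls and at 235, 72.7 and 64.7 CPM in low nitrogen, and SN2 Nitab4.5_0000192g0090 at 22.4 to 23.5 and 66.4, 26.7 and 30.5 CPM. Low nitrogen replicate 1 was the highest library for both. SN1 Nitab4.5_0004707g0070, with the smallest p of the list, was at 2.68, 1.80 and 0.920 CPM in controls and at 0.210, 0.687 and 0.902 CPM in low nitrogen.

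Over these lists, which hold 237 genes, 133 were tested and 0 passed the edgeR threshold. At an unadjusted p under 0.05 there were 5 higher and 6 lower, or 8.27% of those tested, against 11.8% of all genes. DESeq2 and limma-voom placed 0 past their thresholds. At an unadjusted p under 0.05 limma-voom had 9 of the 133, and 4472 of all 38482 genes tested. DESeq2, run without the filter, had 16 among the 237 genes and 4543 among all 69500.

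**Figure D5:**
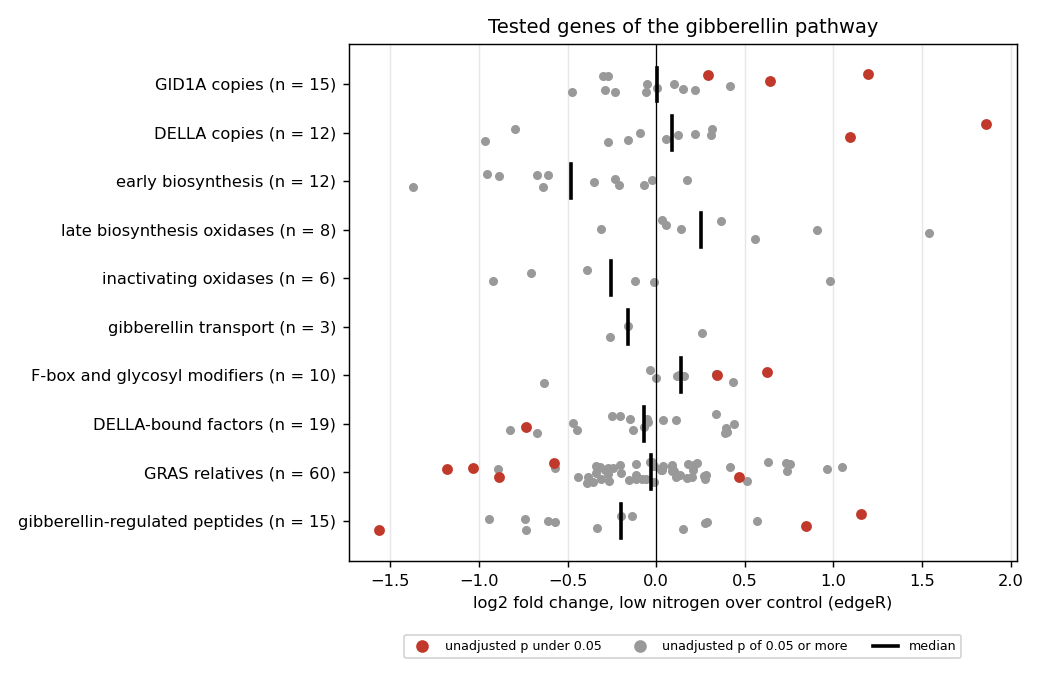
Log2 fold change of low nitrogen over control (edgeR) of each tested gene, by role in the gibberellin pathway. Red points have an unadjusted p under 0.05, grey points do not, and black bars are medians. The 12 early biosynthesis genes lie mostly left of 0 (median -0.48) and the 8 late oxidases mostly right of it (median 0.25).

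As a description of likeness, the genes with levels most like those of the leading receptor and DELLA copies across the 6 libraries were sought among 22432 genes with a symbol and a mean of at least 5 CPM. For GID1A Nitab4.5_0000295g0090 they were At2g13100 (Nitab4.5_0007330g0010, Pearson's r = 0.989 of log2 levels), NSD1 (Nitab4.5_0000949g0070, 0.987) and Ttc27 (Nitab4.5_0000617g0040, 0.986), and 34 genes were above 0.95. For GAI1 Nitab4.5_0004294g0050 they were MAP70.4 (Nitab4.5_0000147g0280, 0.998), GLIP3 (Nitab4.5_0004154g0020, 0.995) and LOG2 (Nitab4.5_0000101g0090, 0.992), with 40 genes above 0.95. All points come from the same 6 libraries, and the sets were picked as the highest of a large search, in which high values arise without any link.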

How the data were processed

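The authors deposited raw whole-number counts per gene, 1 column per library. The submitters' processing notes name the aligner HISAT2. No version, counting tool, strand setting, genome build or rule for reads with several matches is given in the sources used here. Near-identical copies, common in this allotetraploid, may therefore have split or lost reads, and each copy's value is uncertain to that extent. The RefSeq gene table provided, of another assembly, held 0 of the 34 identifiers, so that no coordinates or sequences are given.

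The filterByExpr filter of edgeR 4.0.16 (R 4.3.3) left 38482 of 69500 genes. Counts were scaled by TMM and groups compared by the quasi-likelihood test (glmQLFit, glmQLFTest). P-values were adjusted by Benjamini and Hochberg's method across the genes left, with calls made under 0.05. The standard error is the log2 fold change divided by the square root of the test statistic, and intervals use the same fit. DESeq2 1.42.0 (on the whole table) and limma-voom (limma 3.58.1) were alternatives. All 3 were run on a simulated set, where DESeq2 made more false calls than the other tools. Its counts were drawn separately for each gene left by the filter, with the spread that edgeR had estimated. The simulated set therefore does not rank the tools on these data. Every pair of libraries in a group differed by more than counting noise (chi-square per degree of freedom at least 13.04). Members, lists, markers and alternatives were chosen with earlier results of these data known. Each pathway list names its gene with the smallest p and that with the highest mean CPM, and genes at an unadjusted p under 0.05. For GID2 and SEC the other genes of those names are given too. Of the planned names, SCL33, GIP1, NSP1, HAM2 and SLY1 were left out because their deposited locus names give other proteins, as were 5 of the green tissue names and the flower names other than PEX3; these choices were made with the data in view. No gene carried a planned name of a gibberellin MYB factor.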

Additional observations from a re-analysis of the deposited data

How the results depend on the processing

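With edgeR, 0 of the receptor and DELLA copies and 0 of the other pathway genes passed the threshold under every factor, filter and left-out library tried, and with counts summed over names. The count over all genes was 0 except without control replicate 3, so it ran from 0 to 11 when 1 library was left out. DESeq2 placed 565 genes and 2 copies past the threshold, and 0 to 1 copies with 1 library left out, a setting chosen after seeing the data. Deviations of same-numbered libraries from their group means correlated at -0.335, 0.128 and -0.256. Deviations in a group of 3 sum to 0, so whether the replicate numbers pair the libraries is not settled by this. The replicate block gave 0 copies, 0 other pathway genes and 0 genes in all past the threshold. At an unadjusted p under 0.05 it had 2 of the 27 copies and 3056 of the 38482 genes tested. Keeping the 5 pathway names left out for their locus also gave 0.

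Of the 27 tested copies, 18 kept their direction under all alternatives run and 9 did not. GID1A Nitab4.5_0000080g0190 (log2 fold change) turned to -0.0061 (RLE), -0.0019 (upper quartile and the 1 CPM filter), -0.0037 (no filter), -0.0043 (DESeq2), -0.0295 (limma-voom), -0.0298 (replicate block). RGL3 Nitab4.5_0007087g0030 turned to -0.0116 (limma-voom) and -0.0076 (replicate block). With 1 library left out, or control replicate 3 and low nitrogen replicate 1 together, log2 fold changes spanned 0 in all 9: -0.248 to 0.1529 (Nitab4.5_0000080g0190), -0.2962 to 0.0919 (GID1A Nitab4.5_0003058g0050), -0.1681 to 0.0561 (GID1A Nitab4.5_0008949g0020), -0.0658 to 0.28 (GID1A Nitab4.5_0011064g0010), -0.0112 to 0.8373 (GAI1 Nitab4.5_0003278g0010), -0.052 to 0.2831 (GAI1 Nitab4.5_0004679g0020), -0.3535 to 0.052 (RGA Nitab4.5_0005135g0010), -1.0829 to 0.0011 (RGA Nitab4.5_0007407g0080) and -0.3719 to 0.3461 (RGL3 Nitab4.5_0007087g0030). The cause was not tested. The median over GID1A copies ran from -0.102 to 0.0919 and that over DELLA copies from 0.0438 to 0.158.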
